A study of Homo sapiens with 4 samples.

Results

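The genes described here encode the subunits and assembly factors of the proteasome, in MHCC97H cells with and without knockdown of HNRNPM. They were taken by name: every gene symbol made of PSM, a letter between A and G, and a number, leaving out PSMB8, PSMB9 and the pseudogenes. This gave 44 genes of the 39306 in the tables, of which 15 belong to the 20S core (PSMA, PSMB), 20 to the regulatory particle and its chaperones (PSMC, PSMD), 5 to the activators and inhibitor (PSME, PSMF) and 4 to the core's assembly chaperones (PSMG). All 44 passed the filter on low values, with between 117 and 6186 reads each in every library.

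MHCC97H is an established human hepatocellular carcinoma cell line. The 2 knockdown libraries were made from cells with HNRNPM knocked down by short hairpin RNA, and the 2 wild-type libraries from the same line without that knockdown. The HNRNPM product, heterogeneous nuclear ribonucleoprotein M, binds RNA and takes part in splicing, and the study asked which splicing events depend on it; the tables used here give 1 level per gene and no splicing values. The labels do not say whether the replicates were separate cultures, whether both knockdown libraries carried the same hairpin, or whether the wild-type cells carried a control hairpin, so p-values here cover nothing beyond the scatter of these 4 libraries, some or all of which may be technical.

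The proteasome is the protease that degrades most ubiquitin-tagged proteins in the cytosol and nucleus. Its 20S core is a barrel of stacked alpha and beta rings, with the proteolytic sites inside the beta rings. The 19S regulatory particle caps the barrel: its ATPase subunits unfold the substrate and feed it into the core, while its non-ATPase subunits bind and remove ubiquitin. The transcription factor NFE2L1 raises transcription of proteasome genes together when proteasome activity is short.

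RNA was depleted of ribosomal RNA before sequencing, and levels are in RPKM, reads on a gene's exons for each kilobase of exon, relative to all assigned reads of the library, and divided by a scaling factor per library (TMM). The knockdown libraries held 12708165 and 11498663 assigned reads, against 18317579 and 19659106 in the wild-type libraries. HNRNPM (chr19:8444767-8489114, plus strand, GRCh38) had 21.2 and 20.1 RPKM in the knockdown libraries, against 52.1 and 53.1 RPKM in the wild-type libraries, or 39.2% of the wild-type mean (log2 fold change -1.35 ± 0.07 (SE), limma adjusted p = 0.00270). Of hepatocyte and liver cancer markers, KRT8 had 620 and 661 RPKM in knockdown and 547 and 521 RPKM in wild type, and HNF4A 7.64 and 7.37 RPKM in knockdown and 6.61 and 6.49 RPKM in wild type, while ALB was low at 1.70 and 1.75 RPKM in knockdown and 5.44 and 6.46 RPKM in wild type; of the 12 tested, 1 was higher and 3 were lower in knockdown. The 7 fibroblast markers together had 3.62 and 3.63 RPKM in knockdown and 1.305 and 1.54 RPKM in wild type (3 of 6 tested were higher in knockdown), and the 4 endothelial markers 6.59 and 7.07 RPKM in knockdown and 9.71 and 10.5 RPKM in wild type (2 of 3 tested were lower). LUM made up most of the first sum, with 2.90 and 2.64 RPKM in knockdown and 1.09 and 1.22 RPKM in wild type. PECAM1 made up most of the second, with 5.67 and 5.88 RPKM in knockdown and 8.68 and 9.27 RPKM in wild type. Of the blood markers, PTPRC was listed at 0.0366 and 0 RPKM in knockdown and at 0 in both wild-type libraries, and CD68 at 59.9 and 59.1 RPKM in knockdown and 47.2 and 59.4 RPKM in wild type. CD79A, the other blood marker in the tables and the only one called, was lower, with 1.83 and 2.56 RPKM in knockdown and 4.98 and 5.71 RPKM in wild type (log2 fold change -1.26, limma adjusted p = 0.00942). The labels name 1 cell line for all 4 libraries. In such bulk samples, fewer cells with a transcript and less of it per cell cannot be told apart. The part of these markers in the results was not tested.

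Most proteasome genes were found at closely similar levels with and without HNRNPM knockdown. Of the 44, 3 were lower in knockdown at an adjusted p under 0.05, namely PSMD1, PSME4 and PSMC4, and 0 were higher, which leaves 41 not called. Over all 20221 tested genes 24.9% were called in either direction, 11.1% as higher and 13.8% as lower, and among the 10555 genes at least as abundant as the least abundant proteasome gene 34.1% were called. The split of calls among all genes depended on scaling, with 44.5% of them higher in knockdown after TMM and 55.5% with the deposited values unscaled. At an unadjusted p under 0.05, 9 of the 44 passed, with 1 higher and 8 lower in knockdown, where over all tested genes 40.8% passed, 18.5% as higher and 22.3% as lower.

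The log2 fold changes of the 44 genes ran between -0.45 and 0.28, with a median of -0.01. Their median size without the sign was 0.0888 on the log2 scale, where that of all tested genes was 0.277 and that of the genes at or above the lowest proteasome level 0.257. The 95% interval of the fold change lay within 1.5-fold in either direction for 40 of the 44 (90.9%), against 41.5% of all tested genes and 58.2% of the genes at or above the lowest proteasome level. PSMD1, PSME4, PSMD5 and PSMG2 were the exceptions, and within 2-fold the intervals of all 44 were contained. The standard errors of the 44 ranged between 0.0636 and 0.147 log2. Both knockdown libraries lay above both wild-type libraries in 9 genes and below them in 16, and the groups overlapped in 19. Over all tested genes the groups did not overlap in 67.6%.

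**Figure D1:**
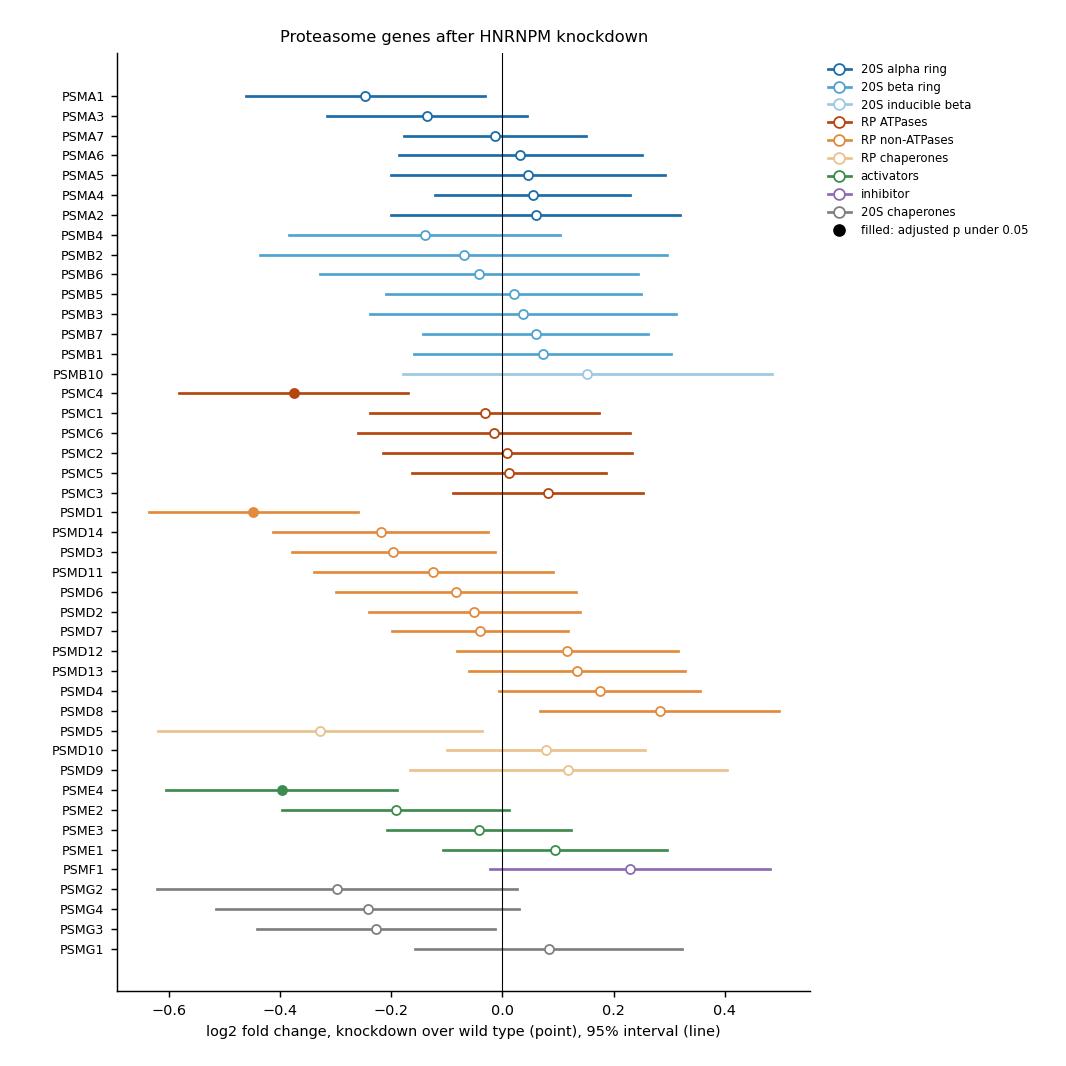
Log2 fold change of knockdown over wild type (x axis) for each of the 44 proteasome genes, grouped by role, with the 95% interval as a line; filled points passed an adjusted p under 0.05. Only PSMC4, PSMD1 and PSME4 are filled, all left of 0, and the points run between -0.45 and 0.28.

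**Figure D2:**
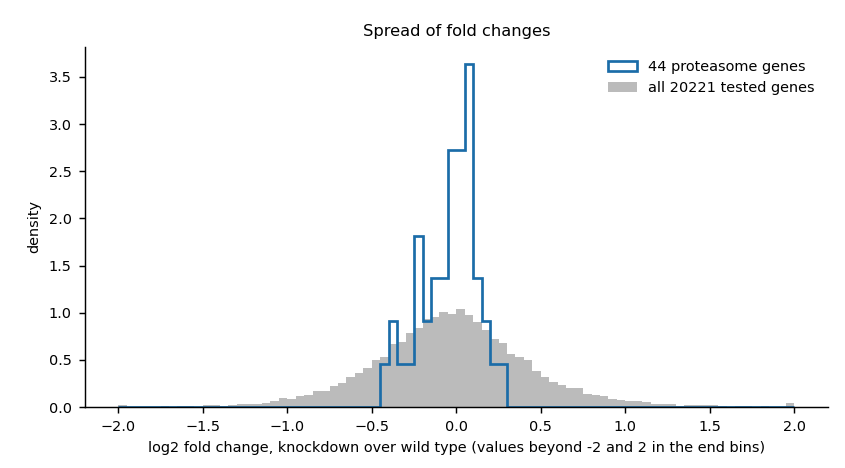
Distribution of log2 fold changes, knockdown over wild type, for the 44 proteasome genes (outline) and all 20221 tested genes (grey), each as a density. The proteasome genes stay between -0.45 and 0.28, inside the wider spread of all genes.

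PSMD1 encodes the large scaffold subunit of the regulatory particle's base, on which ubiquitin receptors dock (chr2:231056864-231172827, plus strand). It had 16.2 and 15.5 RPKM in the knockdown libraries, against 22.5 and 20.9 RPKM in the wild-type libraries. Both knockdown values lay below both wild-type values, with a log2 fold change of -0.45 ± 0.08 (SE, n = 2 libraries each, limma adjusted p = 0.0139). Exons of HTR2B, on the opposite strand, overlapped 10.8% of its exon length, and HTR2B itself had between 9 and 20 reads in any library.

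PSME4, or PA200, is an activator that caps the core without ATP and is known for histone degradation (chr2:53864067-53970840, minus strand). It had 9.43 and 8.78 RPKM in the knockdown libraries, against 12.4 and 11.7 RPKM in the wild-type libraries. The groups did not overlap, and PSME4 had a log2 fold change of -0.40 ± 0.08 (SE, limma adjusted p = 0.0250).

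PSMC4, or RPT3, is an ATPase of the ring that threads substrates into the core (chr19:39971005-39981441, plus strand). It had 54.5 and 56.4 RPKM in the knockdown libraries, against 76.5 and 67.6 RPKM in the wild-type libraries. Wild-type replicate 1 stood highest, and both knockdown libraries lay below wild-type replicate 2 (log2 fold change -0.38 ± 0.08, SE, limma adjusted p = 0.0279).

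These 3 calls were close to the threshold. Without knockdown replicate 1 the adjusted p of PSMD1, PSME4 and PSMC4 were 0.0827, 0.0996 and 0.198, and without knockdown replicate 2 they were 0.0879, 0.128 and 0.121. PSME4 also missed the threshold without wild-type replicate 1 (0.0786) or 2 (0.0555) and PSMC4 without wild-type replicate 1 (0.0520), while PSMD1 passed without either. Their log2 fold changes stayed negative in every one of these fits. With limma-voom on the recovered reads, which called 35.8% of all tested genes, 10 proteasome genes passed: PSMD8 and PSMF1 as higher, and PSMA1, PSMD3, PSMC4, PSME4, PSMD14, PSMD1, PSMG4 and PSMD5 as lower.

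Sequence around the start sites is shown here for the 12 genes, among them the 3 called ones, whose promoter holds TGACNNNGC, the core of the antioxidant response element, which NFE2L1 and its relatives bind with small MAF partners. Promoters were 250 bases before to 50 bases after the RefSeq start (GRCh38.p14), and 38 of the 44 genes had one. The motif was searched on both strands, so a match on the opposite strand appears here as the reverse complement. Each window of 29 bases is written 5′ to 3′ in the direction of the gene, with the match in capitals.
PSMD1, chr2:231056888-231056916, plus strand: gcggcctgaggaggcgacTGACTGAGCag
PSME4, chr2:53971009-53971037, minus strand: cccggcggctGCAGCGTCAccagcagagc
PSMC4, chr19:39971182-39971210, plus strand: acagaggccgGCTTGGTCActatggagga
PSMB3, chr17:38752627-38752655, plus strand: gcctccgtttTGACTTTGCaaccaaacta
PSMD3, first match, chr17:39980760-39980788, plus strand: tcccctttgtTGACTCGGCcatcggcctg
PSMD3, second match, chr17:39980828-39980856, plus strand: gggtttgcagctGCTCCGTCAtcgtgcgg
PSMD5, chr9:120843038-120843066, minus strand: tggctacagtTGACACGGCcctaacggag
PSMD9, first match, chr12:121888631-121888659, plus strand: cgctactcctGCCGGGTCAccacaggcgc
PSMD9, second match, chr12:121888678-121888706, plus strand: cggcttccggTGACCCAGCtccgccctaa
PSMD12, chr17:67366724-67366752, minus strand: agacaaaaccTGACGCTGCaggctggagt
PSME1, chr14:24136098-24136126, plus strand: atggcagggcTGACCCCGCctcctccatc
PSME2, chr14:24146767-24146795, minus strand: ccctggactgTGACCCAGCcagcaccgcc
PSMG1, chr21:39183616-39183644, minus strand: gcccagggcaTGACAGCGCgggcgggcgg
PSMG2, chr18:12658689-12658717, plus strand: cagtttcccgTGACCCCGCggccgctctg

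The match began at position 40 in PSMD1 and at position 28 in PSMC4, counting the first base after the start as 1, and at position -34 in PSME4. The RefSeq start of PSME4 lies upstream of the gene as counted, which begins at chr2:53970840 on the minus strand. The match is therefore farther from that end than from the RefSeq start. The 250 bases before the start of PSME4 (chr2:53970994-53971243, minus strand) are given as the longer context of the match upstream of a called gene, again with the match in capitals.
PSME4 upstream: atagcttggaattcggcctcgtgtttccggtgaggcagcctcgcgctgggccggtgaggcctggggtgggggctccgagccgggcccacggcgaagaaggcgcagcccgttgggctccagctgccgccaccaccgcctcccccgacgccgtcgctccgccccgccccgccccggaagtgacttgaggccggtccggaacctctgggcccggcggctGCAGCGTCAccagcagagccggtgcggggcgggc

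The motif occurred in 12 of the 38 proteasome promoters (31.6%) and in 13.6% of all 27305 promoters. It was in 1 of 11 core promoters, in 6 of 19 regulatory-particle promoters, and in all 3 of the called genes. The 12 genes with a match had a median log2 fold change of -0.19, with a range of -0.45 to 0.12. Of these 12, 7 were below 0 and 5 above. The 26 genes without a match had a median of -0.0034, with 13 below 0 and 13 above. The 12 include the 3 called genes, so their median and the count of called genes are not separate results. The uncalled genes with a match ran between -0.33 (PSMD5) and 0.12 (PSMD9). A link between the motif and the fold change was not tested. Over all tested genes with a promoter, 16.5% of the 1633 with the motif and 14.5% of the 9305 without it were called lower, with medians of -0.03 and -0.04. The letters CCAAT, also searched on both strands, occurred in 17 of the 38 promoters (44.7%), in 35.7% of all promoters and in 0 of the 3 called genes, and no match of one motif overlapped one of the other. These matches are a description of the letters in the window and not of bound sites.

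Core and regulatory particle, the 2 parts of the 26S enzyme, were set against each other by gene name. The core set thus includes the inducible PSMB10, and the regulatory-particle set the assembly chaperones PSMD5, PSMD9 and PSMD10. The lid subunit SEM1 falls outside the name pattern. None of the 15 core genes was called, and 2 of the 20 regulatory-particle genes, PSMC4 and PSMD1, were lower. The median log2 fold change was 0.03 over the core genes and -0.02 over the regulatory-particle genes, but neither median was stable. With the deposited values unscaled the core median was 0.095 and the regulatory-particle median 0.04. After removal of a trend with exon length they were 0.0058 and 0.03, which also turned the difference of the medians. The core median was 0.126 without wild-type replicate 1 and -0.047 without wild-type replicate 2. Core genes had shorter annotated exons, with a median of 2256 bases against 4865.5 bases in the regulatory particle. The summed core level was 368 and 369 RPKM in knockdown, against 396 and 352 RPKM in wild type, and the summed regulatory-particle level 512 and 501 RPKM in knockdown, against 531 and 491 RPKM in wild type. The ratio of core to regulatory particle was thus 0.720 and 0.736 in knockdown, against 0.746 and 0.717 in wild type. Both knockdown ratios lay within the range of the wild-type ratios. Without PSMB10 and the chaperones the ratios were 0.751 and 0.766 in knockdown, against 0.778 and 0.748 in wild type. The medians of core and regulatory particle were then 0.03 and -0.03. Abundant genes weigh most in the sums. PSMD4 had 126 and 121 RPKM in knockdown, against 113 and 106 RPKM in wild type, while PSMC4 went the other way. No difference in the balance was detectable with 2 libraries a group, where an exact permutation test cannot go below p = 0.333 (two-sided).

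The 7 alpha-ring genes, which form the outer gates of the barrel, had log2 fold changes of -0.25 to 0.06, with 0 called. PSMA7 was the most abundant of them, at 90.2 and 94.2 RPKM in knockdown and 93.9 and 92.2 RPKM in wild type. PSMA1, named after its values were seen, had the most negative change of the ring, with 10.5 and 10.8 RPKM in knockdown, against 13.3 and 11.97 RPKM in wild type. Its groups did not overlap, but it missed the threshold (log2 fold change -0.25 ± 0.09, SE, limma adjusted p = 0.0895). Exons of RP11-140L24.4, on the same strand, overlapped 24.7% of the exon length of PSMA1. RP11-140L24.4 had 547 and 513 reads in knockdown and 914 and 886 in wild type, where PSMA1 had 451 and 417, and 793 and 755. The level of PSMA1 is therefore uncertain.

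The beta ring carries the proteolytic sites, and its 3 catalytic subunits were within the spread of the libraries. PSMB5, the chymotrypsin-like subunit, had 21.9 and 21.3 RPKM in knockdown, against 23.0 and 19.8 RPKM in wild type (log2 fold change 0.02 ± 0.09, 95% interval -0.21 to 0.25, limma adjusted p = 0.891). PSMB6, the caspase-like subunit, had 30.7 and 31.2 RPKM in knockdown, against 35.6 and 28.5 RPKM in wild type (log2 fold change -0.04 ± 0.11, limma adjusted p = 0.815). PSMB7, the trypsin-like subunit, had 34.7 and 35.2 RPKM in knockdown, against 35.7 and 31.6 RPKM in wild type (log2 fold change 0.06 ± 0.08, limma adjusted p = 0.621). In all 3 both knockdown values lay between the 2 wild-type values. The inducible subunit PSMB10, which replaces PSMB7 in the immunoproteasome, was low, at 4.83 and 5.86 RPKM in knockdown and 5.09 and 4.49 RPKM in wild type (log2 fold change 0.15 ± 0.13, limma adjusted p = 0.438). Exons of CTC-479C5.12, on the same strand, overlapped 34.8% of the exon length of PSMB10, so its level is uncertain.

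The wild-type libraries themselves differed over these genes. Wild-type replicate 1 was above wild-type replicate 2 in 38 of the 44 genes (86.4%), where over all tested genes it was above in 45.5%. The median difference was 0.12 log2 over the 44 genes and -0.02 over all tested genes. It was above in 15 of 15 core genes, and within the beta ring in 7 of 7, with a median of 0.25 log2. Knockdown replicate 1 was above knockdown replicate 2 in 26 of the 44. Both knockdown values lay between the wild-type values in 9 of the 44 genes, and 6 of these belonged to the beta ring. The fold changes of PSMB1, PSMB3, PSMB5 and PSMB7 took the opposite sign without wild-type replicate 2, and those of PSMB2 and PSMB6 without wild-type replicate 1, and none of these passed in either fit.

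**Figure D3:**
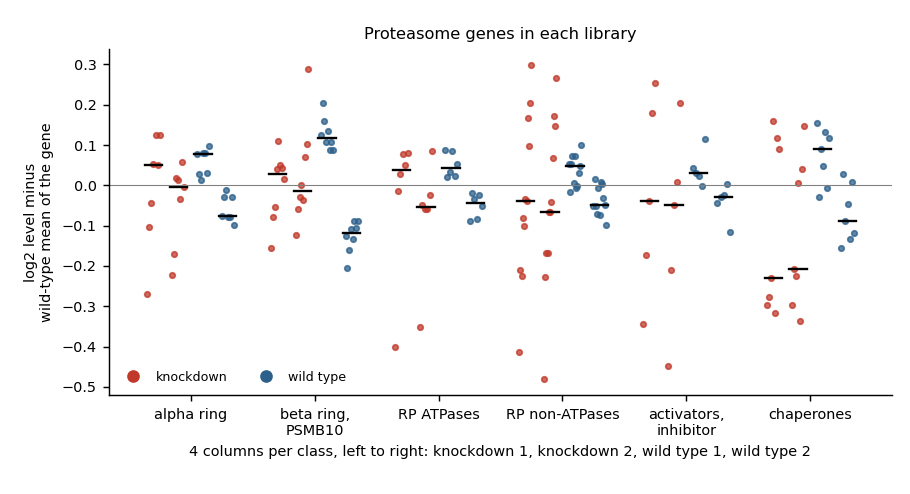
Log2 level of each proteasome gene in each library minus its wild-type mean (y axis), by role, with a bar at the median of each column; red is knockdown, blue is wild type, and the chaperones are those of the core and the regulatory particle together. In the beta ring the knockdown points lie between those of wild-type replicate 1, all above 0, and wild-type replicate 2, all below 0, in 6 of 7 genes; PSMB10 is drawn in the same columns.

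Of the 6 ATPases, PSMC4 was lower and the other 5 had log2 fold changes of -0.03 to 0.08 with none called. PSMC3 had 48.2 and 48.4 RPKM in knockdown, against 47.3 and 44.0 RPKM in wild type, and PSMC2 34.7 and 31.5 RPKM in knockdown, against 34.8 and 31.0 RPKM in wild type. PSMC1 shared 75.8% of its exon length with NRDE2 on the opposite strand, and reads of its 11 pseudogenes came to 12.8% and 10.8% of its own in knockdown and 11.4% and 11.4% in wild type, so its level of 7.11 and 6.94 RPKM in knockdown and 7.28 and 7.08 RPKM in wild type is uncertain.

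The 11 non-ATPase genes spread the most of the classes with more than 5 genes, with log2 fold changes of -0.45 to 0.28. The groups did not overlap in 10 of the 11, with knockdown below in 6 and above in 4, against 67.6% of all tested genes. Only PSMD1 passed. The following genes were named after their values were seen. PSMD8, a lid subunit, had the most positive change of the 44, with 43.1 and 42.2 RPKM in knockdown, against 37.5 and 32.7 RPKM in wild type (log2 fold change 0.28 ± 0.09, SE, limma adjusted p = 0.0640). It passed with the deposited values unscaled (adjusted p = 0.0448) and without wild-type replicate 1 (adjusted p = 0.0296).

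PSMD4, a ubiquitin receptor and the most abundant of the 44, had 126 and 121 RPKM in knockdown, against 113 and 106 RPKM in wild type (log2 fold change 0.17, limma adjusted p = 0.131). PSMD14, the deubiquitinase of the lid, had 8.01 and 7.90 RPKM in knockdown, against 9.16 and 9.38 RPKM in wild type (log2 fold change -0.22, limma adjusted p = 0.0931). PSMD3, a lid scaffold, had 21.6 and 22.5 RPKM in knockdown, against 26.2 and 24.3 RPKM in wild type (log2 fold change -0.20, limma adjusted p = 0.104). The members of the particle thus differed in sign among themselves, and apart from PSMD1 none of these differences passed.

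Among the 3 chaperones that help assemble the regulatory particle, PSMD5 had 5.44 and 5.37 RPKM in knockdown, against 7.47 and 6.20 RPKM in wild type (log2 fold change -0.33 ± 0.12, SE, limma adjusted p = 0.0936). PSMD9 and PSMD10 had log2 fold changes of 0.12 and 0.08. Reads of 3 pseudogenes of PSMD10 came to 15.7% and 13.8% of its own in knockdown and 15.1% and 19.1% in wild type.

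The 4 activators differed among themselves: PSME4 was lower, and PSME1, PSME2 and PSME3 were not called. PSME2, which with PSME1 forms the interferon-inducible activator PA28, had 7.22 and 7.04 RPKM in knockdown, against 8.33 and 7.99 RPKM in wild type (log2 fold change -0.19, limma adjusted p = 0.141). PSME1 had 33.4 and 29.6 RPKM in knockdown, against 29.4 and 29.5 RPKM in wild type (log2 fold change 0.09, limma adjusted p = 0.429). The inhibitor PSMF1, or PI31, had 11.97 and 11.5 RPKM in knockdown, against 10.8 and 9.24 RPKM in wild type (log2 fold change 0.23 ± 0.10, SE, limma adjusted p = 0.150).

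The 4 chaperones of core assembly, which place the alpha subunits in the ring, gave no call. PSMG1 had 8.19 and 7.35 RPKM in knockdown, against 7.56 and 7.08 RPKM in wild type (log2 fold change 0.08 ± 0.10, limma adjusted p = 0.561). PSMG2, its partner, had 4.59 and 4.59 RPKM in knockdown, against 6.31 and 5.07 RPKM in wild type (log2 fold change -0.30 ± 0.13, limma adjusted p = 0.148). Exons of CEP76, on the opposite strand, overlapped 13.9% of the exon length of PSMG2. CEP76 had 147 and 120 reads in knockdown and 254 and 239 in wild type, where PSMG2 had 201 and 180, and 382 and 325. PSMG3 had 14.5 and 14.6 RPKM in knockdown, against 18.1 and 16.0 RPKM in wild type (log2 fold change -0.23 ± 0.09, limma adjusted p = 0.107). PSMG4, the partner of PSMG3, had 2.90 and 3.05 RPKM in knockdown, against 3.47 and 3.61 RPKM in wild type (log2 fold change -0.24 ± 0.11, limma adjusted p = 0.158). Exons of SLC22A23, on the opposite strand, overlapped 13.3% of the exon length of PSMG4. SLC22A23 had 737 and 728 reads in knockdown and 1383 and 1641 in wild type, where PSMG4 had 395 and 371, and 651 and 718. Whether counting used strand is not stated, so the levels of PSMG2 and PSMG4 are uncertain. In PSMG2, PSMG3 and PSMG4 both knockdown libraries lay below both wild-type libraries, and in PSMG1 the groups overlapped. A lack of overlap, in either direction, was found in 67.6% of all tested genes.

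Levels per kilobase differed widely between genes whose products sit in 1 complex. Per kilobase of all annotated exons, the wild-type mean was highest for PSMD4 at 109.7 ± 5.12 RPKM (SD, n = 2), against 123.8 RPKM in knockdown, followed by PSMA7, PSMC4, PSMB4 and PSMC3, and lowest for PSMG4 at 3.54 ± 0.09998 RPKM, against 2.97 RPKM in knockdown. This order depended on the length used. Per kilobase of the principal coding transcript in place of all annotated exons, an alternative chosen after the data were seen, PSMA6 stood at rank 6 and not 28 of the 44, PSMG4 at rank 17 and not 44, and PSMD6 at rank 19 and not 39, while PSMD4 and PSMA7 kept ranks 1 and 2. Spearman's rho between both orders was 0.795 over the 44 genes, which share libraries and reads. Exons of 21 of the 44 genes overlapped those of another gene, and it is not stated whether the counting used strand.

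**Figure D4:**
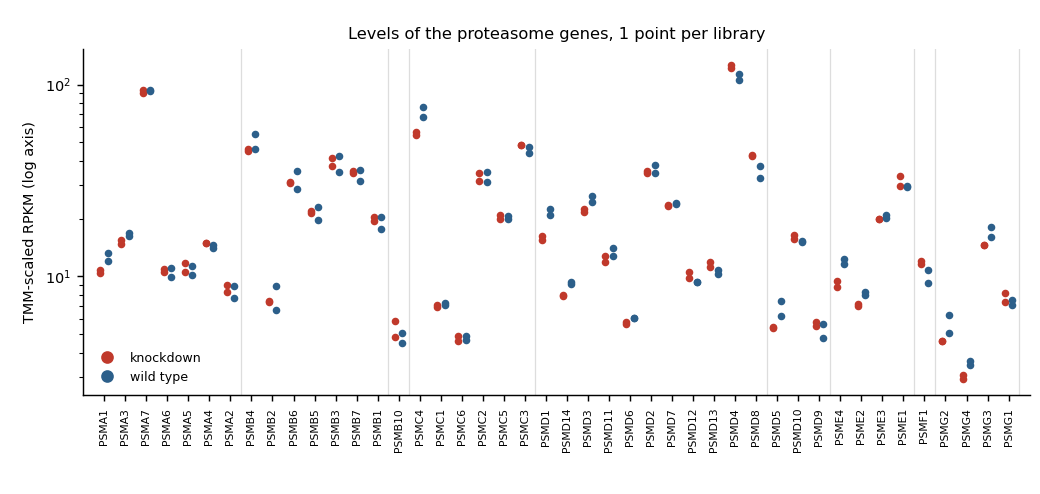
Level of each proteasome gene in RPKM after TMM scaling (log axis), with 1 point per library, knockdown in red left of wild type in blue, and grey lines between roles. Levels run between about the 2.97 RPKM knockdown mean of PSMG4 and the 123.8 RPKM knockdown mean of PSMD4, and red and blue points lie close together within nearly every gene.

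On 4 lists of genes that work with the proteasome, 10 of 37 tested genes were called (27.0%), a share near the 24.9% of all tested genes. Of 15 proteasome-associated genes outside the name pattern, 1 was higher, 1 lower and 13 not called, with a median log2 fold change of 0.06. SEM1, the small lid subunit (SHFM1 in the tables), had 10.03 and 10.8 RPKM in knockdown, against 8.15 and 8.62 RPKM in wild type (log2 fold change 0.31 ± 0.08, SE, limma adjusted p = 0.0497). ECPAS, a proteasome adaptor and scaffold (KIAA0368 in the tables), had 19.2 and 18.2 RPKM in knockdown, against 24.4 and 23.0 RPKM in wild type (log2 fold change -0.34 ± 0.07, SE, limma adjusted p = 0.0259).

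Of 10 genes of the NFE2L1 pathway, which controls proteasome gene transcription, 4 were lower in knockdown, 0 higher and 6 not called, with a median log2 fold change of -0.24. Over all tested genes 13.8% were called lower and 24.9% in either direction. Among genes at or above the lowest proteasome level 34.1% were called in either direction. The list was not tested as a set. VCP, or p97, the ATPase that extracts proteins from membranes and complexes for degradation, had 64.0 and 64.3 RPKM in knockdown, against 98.1 and 100.5 RPKM in wild type (log2 fold change -0.63 ± 0.06, SE, limma adjusted p = 0.00501). SEL1L, a scaffold of the ubiquitin ligase that clears proteins from the endoplasmic reticulum, had 10.7 and 10.97 RPKM in knockdown, against 15.2 and 16.9 RPKM in wild type (log2 fold change -0.56 ± 0.08, SE, limma adjusted p = 0.0101). NFE2L1 itself had 43.3 and 45.3 RPKM in knockdown, against 59.4 and 71.4 RPKM in wild type (log2 fold change -0.55 ± 0.10, SE, limma adjusted p = 0.0179). Its relative NFE2L3 had 2.76 and 2.19 RPKM in knockdown, against 4.56 and 6.31 RPKM in wild type (log2 fold change -1.09 ± 0.20, SE, limma adjusted p = 0.0165). The wild-type libraries of NFE2L3 differed the most of these genes. In all 4 the groups did not overlap, as in 67.6% of all tested genes. The uncalled NFE2L2, the stress-responsive relative, had 12.9 and 12.7 RPKM in knockdown, against 13.7 and 12.6 RPKM in wild type (limma adjusted p = 0.770).

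Of 6 genes of ubiquitin and of E1 enzymes, 1 was higher, 1 lower and 4 not called, with a median log2 fold change of 0.11. RPS27A encodes ubiquitin fused to a ribosomal protein. RPS27A had 99.96 and 93.1 RPKM in knockdown, against 73.5 and 69.4 RPKM in wild type (log2 fold change 0.43 ± 0.07, SE, limma adjusted p = 0.0143). UBA1, the main E1 enzyme that activates ubiquitin, had 36.7 and 40.5 RPKM in knockdown, against 52.9 and 52.5 RPKM in wild type (log2 fold change -0.45 ± 0.07, SE, limma adjusted p = 0.0132).

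Of 7 shuttle receptors, which carry ubiquitin-tagged proteins to the regulatory particle, DDI1 was too low to be tested, 1 of the other 6 was higher and 1 lower. RAD23B had 62.6 and 63.2 RPKM in knockdown, against 50.6 and 46.0 RPKM in wild type (log2 fold change 0.38 ± 0.07, SE, limma adjusted p = 0.0203). UBQLN2 had 11.8 and 11.5 RPKM in knockdown, against 15.2 and 14.5 RPKM in wild type (log2 fold change -0.34 ± 0.07, SE, limma adjusted p = 0.0266).

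Of these 10 calls outside the 44 genes, VCP passed in every alternative fit. Without knockdown replicate 1 only VCP and NFE2L3 passed among the 10, and without knockdown replicate 2 only VCP, SEL1L, NFE2L3 and UBA1. NFE2L1 had an adjusted p of 0.0914 without knockdown replicate 1 and 0.0575 without knockdown replicate 2. NFE2L3 had 0.0594 without wild-type replicate 2. SEM1, the one closest to the threshold, missed it in each fit that left out a library, with adjusted p between 0.0871 and 0.261.

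**Figure D5:**
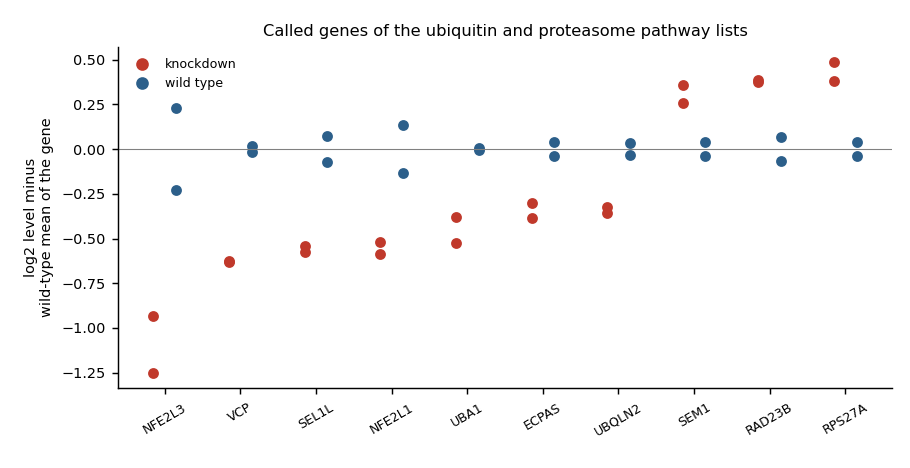
Log2 level minus the wild-type mean of the gene (y axis) for the 10 called genes of the pathway lists, with 1 point per library, knockdown in red left of wild type in blue. The 4 called genes of the NFE2L1 pathway are at the left with both red points below both blue points, and SEM1, RAD23B and RPS27A at the right with both red points above both blue points.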

How the data were processed

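The 4 deposited tables held RPKM per gene name, which the authors made from reads on exons. The tools, per the submitters' processing notes, included StringTie 1.3.2, edgeR 3.12.1, Subread 1.5.1 with featureCounts, and Trimmomatic 0.36. These notes give a mouse build, mm9, although of 26436 names found once in GENCODE 29, 99.7% lay on the same human GRCh38 chromosome, and all 44 proteasome genes had the same coordinates. How the kit's molecular identifiers were handled, and whether counting used strand, was not given in the sources used here. Names on several chromosomes (128) are merged.

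Whole reads were recovered from RPKM and exon length, and gave TMM factors (30% of log ratios and 5% of levels trimmed) of 1.03 and 1.02 for knockdown and 0.984 and 0.972 for wild type. Genes with the equivalent of 10 reads at median depth in at least 2 libraries and at least 15 reads in total were tested. The test was limma 3.58.1 (R 4.3.3) on log2(RPKM + 0.1), fitted to group alone, with Benjamini-Hochberg adjustment at 0.05 over 20221 genes. Fold changes are log2(RPKM + 0.1) differences and understate the change of low genes. Residual degrees of freedom were 2 and prior ones 3.56. The procedure was tested on simulated data.

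The named genes are HNRNPM, the called proteasome genes, PSMB5, PSMB6, PSMB7, PSMG1 to PSMG4, and up to 4 called genes of each pathway list by adjusted p. Others were named after their values were seen. The 44 genes and the lists were chosen with earlier results of these data known. Some genes of the ubiquitin list are not reported here. Alternatives were median-of-ratios or no further scaling, pseudocounts of 1 and 0.01, no or a stricter filter, limma-voom, robust moderation, a replicate block, an exon length trend removed, each library left out, and levels per principal transcript.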

Additional observations from a re-analysis of the deposited data

How the results depend on the processing

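The count of called proteasome genes was 3 in the reported fit and stayed at 3 with median-of-ratios scaling, either other pseudocount, the stricter filter and robust moderation. It was 10 with limma-voom, which also called 20 genes of the pathway lists in place of 10. With no filter on low values it was 0, with 2 pathway genes and 1806 genes in all in place of 5032, at 39306 tested names. Leaving out 1 library at a time gave 0 to 2 proteasome genes, 2 to 7 pathway genes and 1712 to 3218 genes in all, and a regulatory-particle median of -0.050 to 0.020. That median was 0.039 with the deposited values unscaled, where PSMC4 missed the threshold (adjusted p = 0.0511) and 2783 genes were higher and 2234 lower, against 2240 and 2792. With the exon length trend removed it was 0.032, the core median minus it was -0.026, and PSME4 missed the threshold (adjusted p = 0.0558). The cause was not tested. Over all fits the core median ran between -0.047, without wild-type replicate 2, and 0.126, without wild-type replicate 1. Same-numbered libraries shared only a number (correlation of their differences across genes 0.0628, 2 pairs), and with the replicate block 5129 genes passed, with PSMD8 higher (adjusted p = 0.0494) beside the same 3 proteasome genes lower. Depth (11498663 reads in the shallowest library) and 2 libraries a group limit which small differences could be called, and standard errors of the 44 genes reached 0.147 log2.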
